A study of Homo sapiens and Mus musculus with 74 samples.

Results

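The 9 genes described here encode enzymes of glucose breakdown and glucose production that differ between tissues. Pck1, G6pc and Fbp1 belong to gluconeogenesis, and Aldoa, Hk1, Pfkm, Pkm, Ldha and Ldhb belong to glycolysis and lactate metabolism. They were chosen by name, and each is represented by the annotated transcript (GENCODE M21, mouse build GRCm38, also called mm10) with the longest protein. All 9 were present, of 22458 mouse genes with a coding transcript in the count table.

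The table holds 30 libraries from kidney and brain of WT (Rpl41+/+) mice and of Rpl41 KO (Rpl41-/-) mice, in which the whole coding sequence of the ribosomal protein gene Rpl41 had been removed by Cas9 in C57BL/6J zygotes. The tissues came from adult males, and no other allele or treatment is named for either genotype. Poly(A) RNA was sequenced (RNA-seq), as were the fragments protected by 1 ribosome (Ribo-seq, called footprints here), in both tissues. Fragments protected by 2 stacked ribosomes (disome-seq) were sequenced in kidney alone, giving 10 groups of 3 libraries. The mutation is constitutive, so that every cell of a KO animal carried it, and the labels do not say which libraries share an animal.

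Glycolysis splits glucose into pyruvate in the cytosol. Gluconeogenesis runs the same chain in reverse and replaces its irreversible steps with its own enzymes, and the proximal tubule of the kidney and the liver are the organs known for it. Brain is a large consumer of glucose and is not known as a gluconeogenic organ. Pck1 makes phosphoenolpyruvate from oxaloacetate, Fbp1 removes a phosphate from fructose bisphosphate, and G6pc releases free glucose from glucose phosphate. Hk1 traps glucose in the cell, Pfkm is the muscle-type subunit of the committed step, Aldoa splits fructose bisphosphate, and Pkm makes pyruvate. Ldha and Ldhb are the subunits of lactate dehydrogenase, which interconverts pyruvate and lactate.

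The sequences just before the annotated starts of the 3 gluconeogenic genes are shown because these genes were the ones with near-zero brain RNA. Each run is the 250 bases upstream of the transcript start, read 5′ to 3′ on the gene's own strand from GRCm38. Capitals mark matches, on either strand, to any of 5 short motifs: TATAAA (the TATA box), ACGTG (the core bound by HIF), TGACG (the core of the CREB element), CAAAG (a core bound by HNF4A) and CCAAT (the CCAAT box). The Pck1 window lies on the plus strand at chr2:173152798-173153047, the G6pc window on the plus strand at chr11:101367311-101367560, and the Fbp1 window on the minus strand at chr13:62888283-62888532.
Pck1: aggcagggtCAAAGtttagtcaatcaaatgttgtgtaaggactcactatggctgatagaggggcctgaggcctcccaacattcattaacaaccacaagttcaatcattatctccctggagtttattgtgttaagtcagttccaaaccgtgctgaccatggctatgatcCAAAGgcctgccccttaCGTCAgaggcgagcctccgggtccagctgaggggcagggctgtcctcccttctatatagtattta
G6pc: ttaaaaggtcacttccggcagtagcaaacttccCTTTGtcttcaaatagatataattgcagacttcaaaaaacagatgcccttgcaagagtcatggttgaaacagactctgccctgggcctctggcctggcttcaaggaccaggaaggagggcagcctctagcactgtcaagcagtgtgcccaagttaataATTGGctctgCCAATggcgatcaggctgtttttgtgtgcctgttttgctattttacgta
Fbp1: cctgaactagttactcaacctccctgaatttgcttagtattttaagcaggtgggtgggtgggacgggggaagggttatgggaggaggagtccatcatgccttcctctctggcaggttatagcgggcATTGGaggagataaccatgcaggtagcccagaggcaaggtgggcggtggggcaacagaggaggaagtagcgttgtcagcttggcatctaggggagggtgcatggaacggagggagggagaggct

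The Pck1 window held TGACG on the opposite strand 65 bases before the start, and CAAAG at 241 and 82 bases. The G6pc window held CAAAG on the opposite strand at 217 bases and CCAAT at 59 bases (opposite strand) and 49 bases. The Fbp1 window held 1 CCAAT, on the opposite strand. These letters are common: over the upstream windows of 21864 genes, TATAAA was found in 11.6%, ACGTG in 17.4%, TGACG in 19.8%, CAAAG in 47.3% and CCAAT in 35.7%. Among the 9 enzyme genes, 1, 2, 2, 3 and 5 windows held the respective motif, in that order. A match describes letters alone and says nothing of binding. Pck1, G6pc and Fbp1 windows contained 4, 3 and 5 CG dinucleotides against a median of 9 over all genes. The glycolytic genes lay on both sides of that median: Aldoa contained 21, Ldhb 14, Pkm 13, Ldha 9, Pfkm 6 and Hk1 1.

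For RNA, totals per library ran from 44998381 to 55077048 counts (kidney) and from 84433838 to 123745890 (brain). For footprints they ran from 11036643 to 42452425 (kidney) and from 9498663 to 35881929 (brain), and for disomes from 1187636 to 3018963. Rpl41 itself had 3695 to 7502 counts in WT and 3 to 8 in KO kidney RNA-seq, and 8981 to 12199 against 6 to 12 in brain RNA-seq, which matches the genotype labels. Summed over 6 proximal tubule markers, kidney RNA reached 3267 to 3472 CPM (counts scaled to a common library total) and brain RNA 11.8 to 12.9 CPM, and the sum over 5 neuron markers was 1478 to 1680 CPM in brain RNA and 0.254 to 0.575 CPM in kidney RNA. KO kidney RNA-seq replicates 2 and 3 stood apart: mitochondrial rRNA took 1.76% and 1.67% of their counts, while the other 4 had 0.436 to 0.962%. In kidney RNA-seq, rows of the annotation that cover only the 5′ end of a member also held on average a smaller share of its counts in KO than in WT, for all 8 members with such a row (for Pck1, 0.501 to 1.14% of the counts of the full row against 1.63 to 5.00%). For Pck1, G6pc, Hk1 and Ldha, the kidney RNA difference between genotypes is given with and without replicates 2 and 3. All tissues are bulk samples, in which fewer cells of a type and less RNA per cell cannot be told apart.

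To compare levels between genes, CPM were divided by length: by exonic kilobases for RNA and by coding kilobases for footprints. In WT kidney RNA, Ldhb was highest at 329 ± 11 CPM per kb (SD, n = 3 in each group here), followed by Aldoa at 250 ± 25, Fbp1 at 190 ± 50, Pck1 at 151 ± 89 and Ldha at 140 ± 9.2. From Aldoa down to Ldha, each gene overlapped its neighbour in that order. Below them, G6pc (59.0 ± 4.6 CPM per kb), Pkm (39.2 ± 6.2), Hk1 (9.72 ± 0.42) and Pfkm (6.66 ± 1.0) were separate from each other. In WT brain RNA the order was Aldoa (236 ± 4.8 CPM per kb), Pkm (127 ± 4.8), Ldhb (107 ± 2.9), Pfkm (30.3 ± 3.5), Ldha (28.0 ± 0.61) and Hk1 (15.3 ± 2.1), of which only the neighbours Pfkm and Ldha overlapped. Fbp1, Pck1 and G6pc closed the brain order at 0.0369, 0.0297 and 0.00451 CPM per kb.

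Footprints gave much the same order in WT kidney, with Ldhb at 388 ± 34 CPM per coding kb, Fbp1 at 378 ± 32, Pck1 at 272 ± 70 and Aldoa at 233 ± 19. Each of these overlapped the next. G6pc (178 ± 29) and Ldha (176 ± 11) also overlapped, and Pkm (60.1 ± 13), Hk1 (12.8 ± 1.9) and Pfkm (9.60 ± 0.13) were again the lowest and separate. In WT brain footprints, Aldoa led with 338 ± 52 CPM per coding kb, ahead of Pkm (201 ± 15) and Ldhb (193 ± 22), which overlapped, and of Ldha (78.9 ± 12), Pfkm (49.7 ± 3.0) and Hk1 (35.1 ± 3.2). The gluconeogenic enzymes again came last, with Pck1 at 4.38 ± 3.1, Fbp1 at 3.65 ± 1.8 and G6pc at 1.46 ± 1.1 CPM per coding kb, each overlapping the next.

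**Figure D1:**
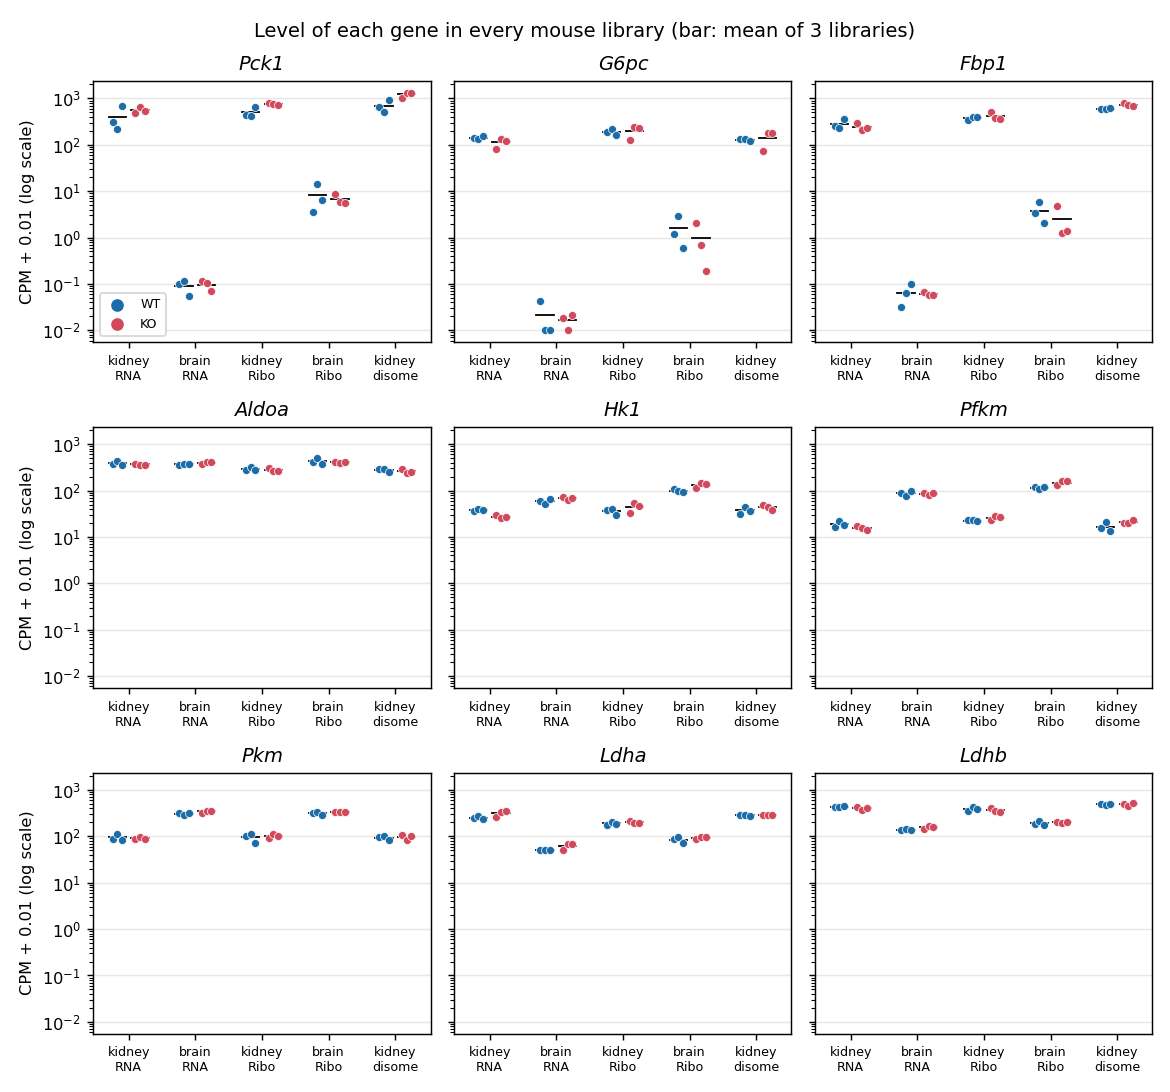
Levels of the 9 genes in every library, 1 panel per gene, as CPM with a small constant added, on a log axis. Points are libraries (WT blue, KO red), grouped by tissue and assay, and bars are means of 3 libraries. WT kidney RNA averages 402 CPM for Pck1, 142 for G6pc and 281 for Fbp1, which all lie below 0.1 CPM on average in WT brain RNA, whereas the WT means of Aldoa are 387 and 366 CPM.

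The tissue comparison asked which of these isozymes each organ carries. Between WT kidney and WT brain RNA, 5 of the 6 glycolytic genes passed the test (adjusted p under 0.05), 2 higher and 3 lower in kidney, beside 64.1% of all transcripts tested. In footprints all 9 passed, 5 higher and 4 lower in kidney, beside 70.9% of all transcripts tested. A call is thus the usual outcome between these organs, and the size of the difference carries the description. The median log2 difference over all transcripts was -0.20 in RNA and 0.01 in footprints. In KO libraries, 5 of the 6 glycolytic genes passed in RNA, and all 6, Pck1 and Fbp1 passed in footprints, in the same directions as in WT. G6pc had 4 to 37 counts in KO brain footprints and passed the filter there only through its kidney libraries, so its KO footprint difference is not counted. The 3 gluconeogenic genes passed the filter on low RNA counts only through their kidney libraries, and their RNA values are given as a description.

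Gluconeogenic genes had the widest differences. Pck1 RNA was 314, 221 and 671 CPM in WT kidney and 494, 643 and 542 CPM in KO kidney. In brain the same transcript had 8, 10 and 4 counts in WT and 13, 8 and 5 counts in KO, which corresponds to 0.0447 to 0.105 CPM. The kidney libraries were all far above the brain libraries, with a log2 difference of 12.48 in WT (SE 0.57).

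Fbp1 RNA was 251, 226 and 365 CPM in WT kidney, and had 2, 5 and 8 counts in WT brain. The log2 difference was 12.53 (SE 0.38). G6pc RNA was 139, 133 and 155 CPM in WT kidney, and in brain had 3, 0 and 0 counts in WT and 1, 0 and 1 counts in KO. With 3 counts per library taken as the floor, G6pc RNA was at least 4370-fold higher in kidney than in brain in WT and at least 3531-fold higher in KO.

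Sister genes with other tissue ranges behaved differently. Pck2, the mitochondrial counterpart of Pck1, was 7.35 ± 1.2 CPM in WT kidney RNA and 6.41 ± 0.24 CPM in brain RNA (adjusted p = 0.0704). G6pc3, the broadly expressed glucose phosphatase, was 19.7 ± 1.8 and 19.1 ± 1.8 CPM (adjusted p = 0.126). Neither passed the test in RNA, and in footprints Pck2 did (log2 difference 0.46, adjusted p = 0.0257) while G6pc3 did not (0.20, adjusted p = 0.235). Fbp2, the muscle-type fructose bisphosphatase, was 4.92 ± 0.75 CPM in WT kidney RNA and had 0 to 3 counts in WT brain RNA.

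Footprints of the 3 gluconeogenic genes in brain were sparse, yet more abundant than their RNA would give at the kidney's ratio. Pck1 footprints were 446, 418 and 658 CPM in WT kidney and 3.52, 14.5 and 6.47 CPM in WT brain, with 73, 138 and 142 counts behind the brain values. Fbp1 footprints were 346, 406 and 399 CPM in kidney and 3.33, 5.69 and 2.10 CPM in brain. G6pc footprints were 190, 222 and 160 CPM in kidney and 1.16, 2.95 and 0.592 CPM in brain. Kidney and brain did not overlap for any of them, and the log2 differences in WT were 6.14 (SE 0.41, adjusted p = 8.20e-09) for Pck1, 6.89 (SE 0.28, adjusted p = 4.54e-11) for Fbp1 and 7.26 (SE 0.35, adjusted p = 2.20e-10) for G6pc.

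The ratio of footprint CPM to RNA CPM of Pck1 was 1.26 in WT kidney and 103 in WT brain. Genes made mainly by hepatocytes were likewise present in brain footprints and nearly absent from brain RNA: Alb, which encodes albumin, was 54.1 to 242 CPM in footprints and 0.380 to 0.557 CPM in RNA. Apoa1 was 7.40 to 28.1 and 0.235 to 0.365 CPM, and Serpina1a 14.3 to 65.3 and 0.0471 to 0.170 CPM. Serpina1a was not particular to brain footprints, with 51.8 to 110 CPM in kidney footprints and 5.13 to 17.4 CPM in kidney RNA. In kidney, Alb was 2.29 to 9.27 CPM in footprints and 0.442 to 2.07 CPM in RNA, and Apoa1 0.0673 to 0.502 and 0.195 to 0.619 CPM.

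All 3 hepatocyte markers had counts in every brain library, and their sum was 118 to 335 CPM in WT and 80.9 to 221 CPM in KO brain footprints against 0.696 to 0.936 CPM in brain RNA. WT brain Ribo-seq replicate 2 was the highest brain library for Pck1, G6pc, Fbp1 and the marker sum alike, whereas WT replicate 1, the lowest for Pck1, was not the lowest for Alb. The 6 proximal tubule markers summed to 16.4 to 29.0 CPM in brain footprints and 11.8 to 12.9 CPM in brain RNA, with at most 1 of them at 0 in a library. The endocytic receptor Lrp2 was 1.42 to 9.83 CPM in brain footprints against 0.190 to 0.403 CPM in RNA, and the organic anion carrier Slc22a6 4.55 to 5.97 against 2.25 to 2.82 CPM. Ranges of footprints and RNA overlapped for the other 4, namely Slc13a3 (8.53 to 15.5 and 8.44 to 9.71 CPM), Slc34a1 (0.0279 to 0.421 and 0 to 0.153 CPM), Cubn (0.228 to 0.421 and 0.283 to 0.380 CPM) and Slc5a12 (0 to 0.211 and 0.0211 to 0.0653 CPM). The part of liver or kidney RNA in the brain footprints of these genes was not tested.

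**Figure D2:**
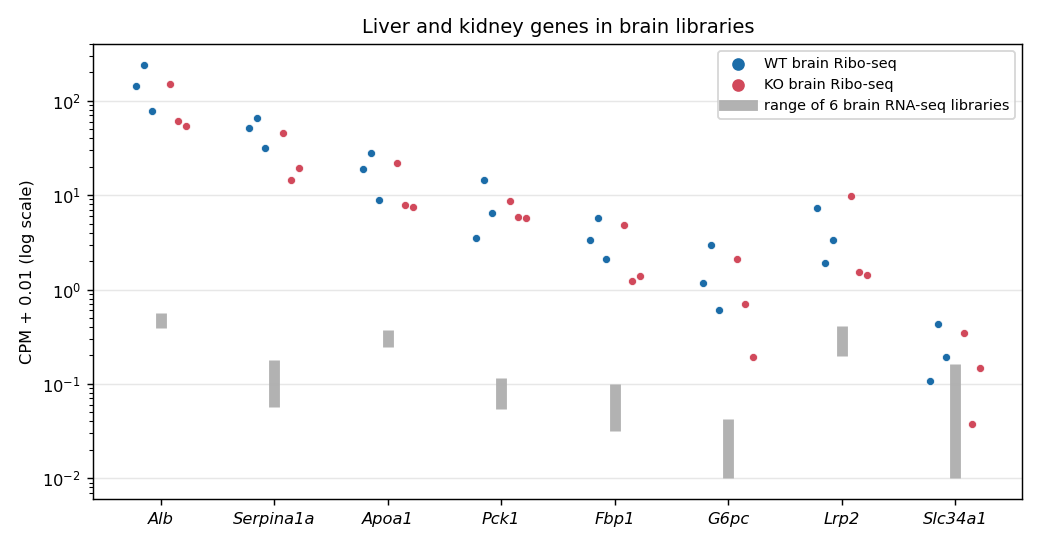
Footprint levels in the 6 brain Ribo-seq libraries, as CPM with a small constant added, on a log axis, for the gluconeogenic genes and the marker genes named in the text. Points are libraries (WT blue, KO red), and grey bars span the 6 brain RNA-seq libraries. Pck1 footprints run from 3.52 to 14.5 CPM against at most 0.105 CPM of RNA, and Alb from 54.1 to 242 CPM against at most 0.557 CPM.

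Aldoa, the ubiquitous aldolase, was the member most alike between the organs in RNA. WT kidney RNA was 367, 432 and 362 CPM and WT brain RNA 358, 373 and 366 CPM. The groups overlapped, and the log2 difference of 0.34 did not pass the test (SE 0.19, adjusted p = 0.142). Its footprints were 279, 320 and 278 CPM in WT kidney and 409, 495 and 368 CPM in WT brain. Here the organs did not overlap, and kidney was lower by a log2 difference of -0.45 (SE 0.15, adjusted p = 0.0171), a call lost without WT brain replicate 2 (adjusted p = 0.0616) or WT kidney replicate 1 (0.0806) or 3 (0.0651).

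Aldoc, the neural aldolase, was 4.81 ± 0.27 CPM in WT kidney RNA and 253 ± 4.6 CPM in WT brain RNA, a log2 difference of -5.47 (SE 0.19, adjusted p = 8.22e-09).

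Hk1, the hexokinase of brain and most other tissues, was lower in kidney, more so in footprints than in RNA. Its RNA was 35.8, 39.0 and 37.5 CPM in WT kidney and 58.5, 51.4 and 67.2 CPM in WT brain. The libraries did not overlap, but after scaling the log2 difference was -0.40 (SE 0.15, adjusted p = 0.0423), and this call was lost without WT brain replicate 1 (adjusted p = 0.0933), WT kidney replicate 1 (0.141) or WT kidney replicate 3 (0.0818). In KO libraries the same difference was -0.99 (SE 0.13, adjusted p = 0.000206).

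Hk1 footprints were 38.7, 40.1 and 30.0 CPM in WT kidney and 110, 96.5 and 92.3 CPM in WT brain. All brain libraries exceeded all kidney libraries, with a log2 difference of -1.37 (SE 0.14, adjusted p = 8.95e-07). Hk2, the inducible hexokinase, was 0.628 ± 0.20 CPM in WT kidney RNA and 1.59 ± 0.26 CPM in WT brain RNA.

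Pfkm was lower in kidney in both assays. Its RNA was 16.6, 22.4 and 18.5 CPM in WT kidney and 87.0, 77.0 and 97.4 CPM in WT brain. The organs did not overlap, and the log2 difference was -1.92 (SE 0.18, adjusted p = 7.46e-06). Its footprints were 22.6, 22.7 and 22.1 CPM in kidney and 122, 109 and 118 CPM in brain, a log2 difference of -2.29 (SE 0.13, adjusted p = 1.15e-09).

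Other phosphofructokinase subunits were lower in kidney too, or did not pass the test. The platelet-type subunit Pfkp was 22.1 ± 2.6 CPM in WT kidney RNA and 56.5 ± 4.6 CPM in brain RNA (log2 difference -1.09, adjusted p = 0.000292). The liver-type subunit Pfkl was 22.0 ± 0.64 and 30.8 ± 2.1 CPM (-0.23, adjusted p = 0.193). Per kb, Pfkm made up 36.2 ± 2.4% of the 3 subunits in kidney RNA against 57.5 ± 1.6% in brain RNA (n = 6 and 6 libraries of both genotypes), and 31.5 ± 2.2% against 45.2 ± 2.2% in footprints. Neither pair of groups overlapped, and the two-sided exact permutation test gave p = 0.0021645 for each, the smallest that 6 against 6 libraries can give (adjusted p = 0.00309 over 10 shares). The test takes all 12 libraries as independent, although deviations of KO kidney and KO brain libraries with the same number correlated at 0.14 to 0.31 in RNA and 0.11 to 0.24 in footprints.

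**Figure D3:**
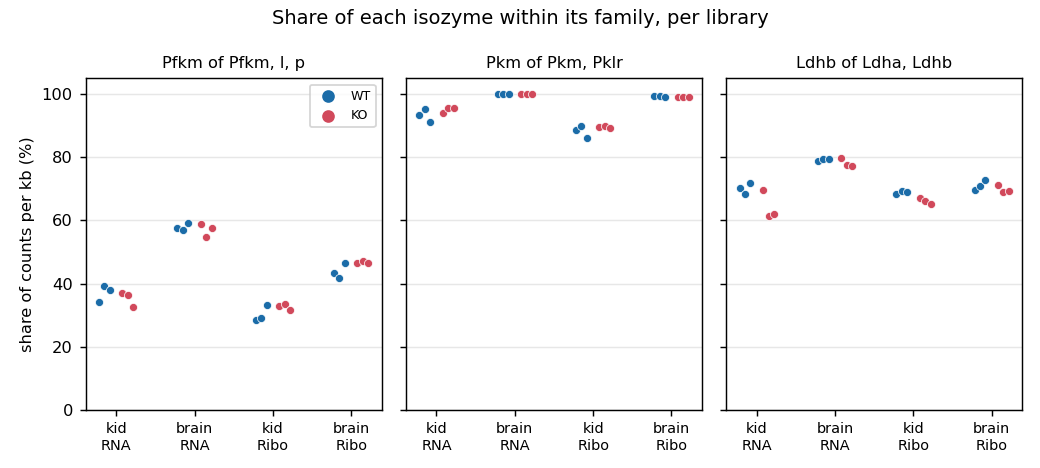
Shares of Pfkm, Pkm and Ldhb among their sister genes, in percent of summed CPM per kb, in kidney (kid) and brain libraries for RNA-seq and Ribo-seq. Points are single libraries (WT blue, KO red), 6 per tissue and assay. The Pfkm share is 32.6 to 39.2% in kidney RNA and 54.7 to 59.1% in brain RNA, the widest gap among these shares.

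Pkm, the pyruvate kinase of most tissues apart from liver, was lower in kidney as well. Its RNA was 88.5, 113 and 84.9 CPM in WT kidney and 316, 295 and 315 CPM in WT brain, a log2 difference of -1.44 (SE 0.20, adjusted p = 0.000111). Its footprints were 102, 112 and 73.0 CPM in kidney and 322, 343 and 295 CPM in brain, a difference of -1.65 (SE 0.16, adjusted p = 5.65e-07). Neither assay had overlapping organs. Pklr, the liver and red cell pyruvate kinase, was 7.60 ± 1.5 CPM in WT kidney RNA and 0.166 ± 0.08 CPM in WT brain RNA. Its WT brain libraries had 10 to 24 counts, and it passed the filter on low RNA counts only through kidney. The log2 difference of 5.73 is therefore given as a description. Pkm made up 94.2 ± 1.7% of pyruvate kinase RNA in kidney and 99.95 ± 0.02% in brain.

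Pkm makes M1 and M2 forms through a choice between mutually exclusive exons, of which M1 is known from adult brain and muscle and M2 from kidney and dividing cells. The exons are printed because they are where the coding sequences of the 2 rows differ. Both lie on the plus strand of GRCm38, the M1 exon at chr9:59675029-59675195 and the M2 exon at chr9:59675568-59675734, inside the coding sequence. Each is 167 bases long, and 103 positions match (61.7% identity). Capitals mark the 64 positions at which they differ.
Pkm M1 exon: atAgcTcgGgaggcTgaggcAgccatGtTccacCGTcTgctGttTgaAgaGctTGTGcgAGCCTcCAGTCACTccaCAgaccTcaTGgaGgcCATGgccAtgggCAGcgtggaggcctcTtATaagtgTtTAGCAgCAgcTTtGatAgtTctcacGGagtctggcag
Pkm M2 exon: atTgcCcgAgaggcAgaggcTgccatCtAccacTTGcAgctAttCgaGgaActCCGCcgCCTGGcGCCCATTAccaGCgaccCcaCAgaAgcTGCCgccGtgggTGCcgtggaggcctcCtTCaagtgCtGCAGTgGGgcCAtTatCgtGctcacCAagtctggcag

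The M1 and M2 rows have coding sequences of equal length (1593 bases) that differ at these exons, but the exonic length is 2041 bases for the M1 row and 2432 bases for the M2 row, so reads outside the coding sequence differ between them too. In footprints, the M1 row minus the M2 row came to -3.73 ± 0.58% of the M2 row in kidney and 8.68 ± 0.72% in brain (n = 6 and 6). The kidney libraries ranged from -4.44 to -2.83% and the brain libraries from 7.32 to 9.38%, without overlap (exact permutation p = 0.0021645, two-sided, the smallest possible). In RNA the same quantity was below 0 in every library of both organs, at -35.7 to -14.6% in kidney and -15.7 to -7.10% in brain, and the organs overlapped. The overlap lay between KO brain replicates 2 and 3 (-15.7 and -15.1%) and WT kidney replicate 3 (-14.6%). In WT libraries alone, kidney ran from -23.4 to -14.6% and brain from -11.0 to -7.10%. In footprints, a shorter annotated row that carries the M1 exon was also higher in brain, at 25.1 ± 1.7% of the M2 row in kidney and 35.2 ± 0.71% in brain.

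**Figure D4:**
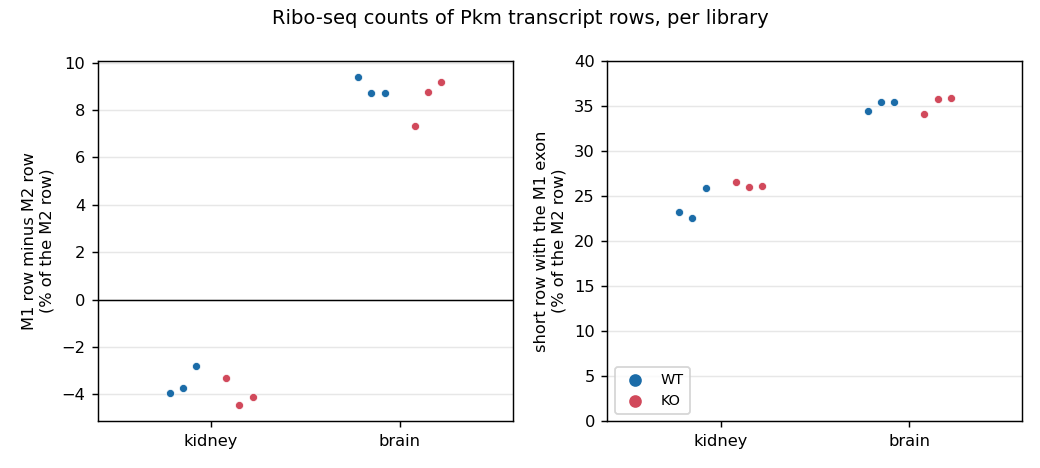
Footprint counts of Pkm rows in each of the 6 kidney and 6 brain Ribo-seq libraries (WT blue, KO red): the M1 row minus the M2 row on the left and a shorter row with the M1 exon on the right, both in percent of the M2 row. On the left, kidney lies between -4.44 and -2.83% and brain between 7.32 and 9.38%, on opposite sides of 0, and on the right kidney averages 25.1% and brain 35.2%.

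Ldha and Ldhb were both higher in kidney. Ldha RNA was 248, 273 and 242 CPM in WT kidney and 50.5, 52.0 and 49.8 CPM in WT brain, a log2 difference of 2.58 (SE 0.18, adjusted p = 7.91e-07). Ldhb RNA was 420, 422 and 446 CPM in WT kidney and 136, 143 and 139 CPM in WT brain, a difference of 1.87 (SE 0.17, adjusted p = 5.68e-06). The organs did not overlap for either subunit. In footprints the differences were narrower, at 1.25 for Ldha (SE 0.15, adjusted p = 3.18e-06) and 1.10 for Ldhb (SE 0.15, adjusted p = 1.23e-05).

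Ldhb, the subunit known from oxidative tissues, made up 67.2 ± 4.5% of lactate dehydrogenase RNA per kb in kidney and 78.7 ± 1.1% in brain, without overlap (exact permutation p = 0.0021645). In footprints its share was 67.5 ± 1.6% and 70.4 ± 1.5%, and the libraries overlapped slightly (exact permutation p = 0.00866). The shares of Pfkm, Pkm and Ldhb in both assays had adjusted p under 0.05 over the family of 10 shares tested. With WT libraries alone, 3 against 3, none could pass, since the smallest p is then 0.1.

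**Figure D5:**
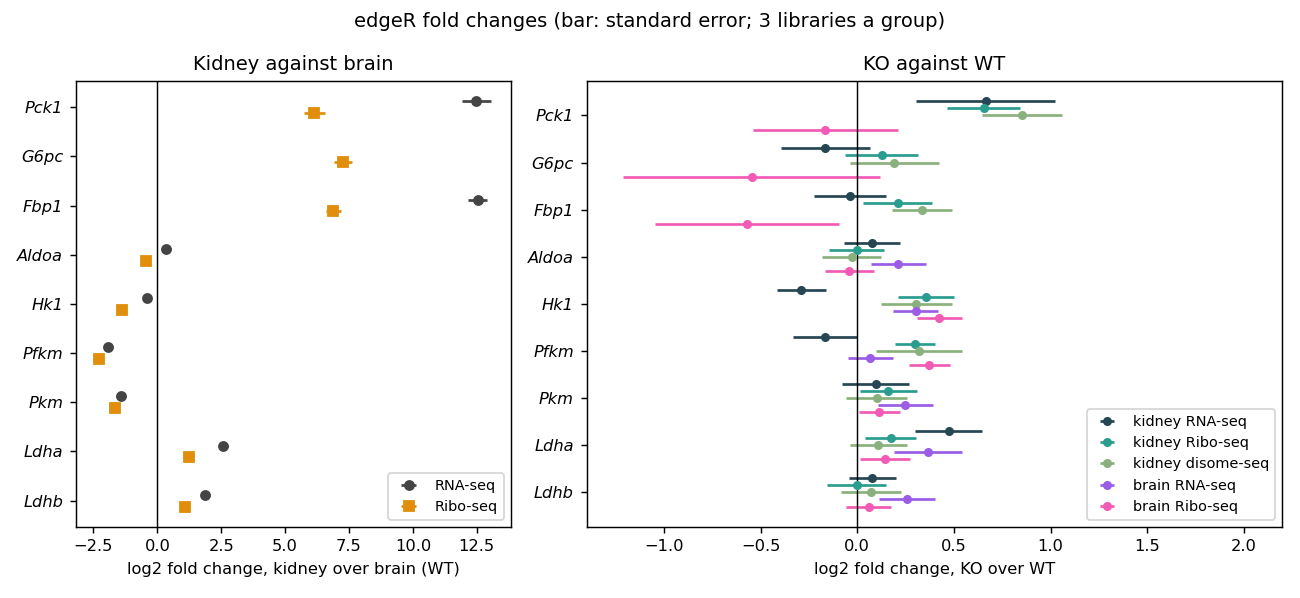
Log2 differences of the 9 genes, kidney against brain in WT and KO against WT within each tissue and assay, from the edgeR fits. Bars on the points are standard errors, and the RNA tissue point of G6pc is left out because its brain libraries were at or under the floor of 3 counts. Tissue differences span from 12.53 for Fbp1 RNA to -2.29 for Pfkm footprints, while the largest KO difference in kidney footprints is 0.66, for Pck1.

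Translation efficiency, the footprint level relative to RNA, was compared between organs through the interaction of assay and tissue in WT. It was lower in kidney for 2 of the 6 glycolytic genes (Ldha and Hk1) and higher for none, beside 19.9% of all transcripts tested, of which more were higher in kidney (13402) than lower (5791). The median over all transcripts was 0.26. The values of Pck1 (-6.19, SE 0.74) and Fbp1 (-5.48, SE 0.49) are given as a description, since their WT brain RNA counts were 4 to 10 and 2 to 8, and none is given for G6pc, whose brain RNA was at or under the floor.

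Ldha (-1.16, SE 0.22, adjusted p = 0.00137) and Hk1 (-0.81, SE 0.21, adjusted p = 0.0113) were the genes lower in kidney. The Hk1 value was -0.46 in KO libraries and did not pass there (adjusted p = 0.167), nor did it pass in WT with counts summed per gene. Aldoa and Ldhb had values of -0.61 each and did not pass (adjusted p = 0.0746 and 0.0538). When equally numbered libraries of both assays were treated as pairs, they did (adjusted p = 0.0480 and 0.0465), which makes 4 of 6. DESeq2 and limma voom called the same 4 of 6, beside 23.8% and 40.2% of all transcripts. Aldoa and Ldhb also passed with library totals alone (adjusted p = 0.0401 and 0.0247) and in KO libraries (0.0129 and 0.0118). Pfkm (-0.20) and Pkm (-0.05) had adjusted p of 0.559 and 0.944, so their lower kidney footprints came with similarly lower kidney RNA.

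Among the other 53 genes of glucose metabolism on a list that covers the remaining enzymes, transporters and regulators, 51 were tested in WT RNA between organs, and 25 were higher and 15 lower in kidney. In footprints 26 were higher and 12 lower, of 48 tested, and in translation efficiency 7 were higher and 7 lower, of 52. The shares called, 40 of 51 and 38 of 48, stand beside the 64.1% and 70.9% given above. The genes counted, also for translation efficiency, include some that passed the filter only through the organ where they were higher. Besides those named below, these are Fbp2 and Pklr in RNA, and Fbp2 and Slc5a2 in footprints, so the counts are a description. The transcription factor Hnf4a, 238 CPM in WT kidney RNA and 0 to 2 counts in brain, and the glucose carrier Slc2a2, 57.4 against 0.032 CPM, were the highest in kidney relative to brain. Both are among the 25 higher in RNA, but they passed the filter on low RNA counts only through kidney. Their RNA values are thus a description. Eno2, the neuronal enolase, was among the lowest, at 0.507 against 176 CPM in WT kidney and brain RNA (log2 difference -8.17 in RNA and -9.19 in footprints). In footprints it passed the filter only through brain, so that value is a description.

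The genotype comparison asked whether loss of Rpl41 altered these levels. None of the 9 genes passed in kidney RNA, kidney footprints, kidney disomes or brain footprints, nor did any of the 6 tested in brain RNA, where Pck1, G6pc and Fbp1 had too few counts. Over all transcripts, edgeR called 0.00992% in kidney RNA, 7.76% in kidney footprints, 0.201% in disomes, 0.0134% in brain RNA and 0.0345% in brain footprints. In kidney RNA, Ldha alone had an unadjusted p under 0.05, and DESeq2 called 0 and limma voom 2 of the 9 genes, beside 0.766% and 41.6% of all transcripts with those tools. In kidney footprints 3 did (Pck1, Hk1 and Pfkm), and DESeq2 called 1 and limma voom 2, beside 4.69% and 13.4%. In disomes 2 did (Pck1 and Fbp1), and both other tools called 1, beside 0.184% and 0.377%. In brain RNA 1 did (Hk1), with 0 and 0 called by the other tools, and in brain footprints 2 did (Hk1 and Pfkm), with 2 called by DESeq2, beside 0.443%, and 0 by limma voom.

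Pck1 had the largest values. Its kidney footprints were 446, 418 and 658 CPM in WT and 797, 742 and 738 CPM in KO. Every KO library was above every WT library, and the log2 difference was 0.66 (SE 0.19, adjusted p = 0.0511), just outside the threshold. WT kidney Ribo-seq replicate 3 was the nearest to KO, and without it the adjusted p was 0.0101. Over 14 settings, the reported one included, the difference ran from 0.55 to 0.91, and 5 passed, among them DESeq2 (adjusted p = 0.00492) and limma voom (0.00669). The 6 proximal tubule markers were separate by genotype too, with summed kidney footprints of 3688 to 4196 CPM in WT and 4965 to 5174 CPM in KO. The 5 loop of Henle and distal nephron markers summed to 1303 to 1549 and 1738 to 1845 CPM, and the podocyte sums overlapped. Over all transcripts tested, genotypes did not overlap for 29.4% in kidney footprints. In kidney RNA the proximal tubule sums overlapped (3267 to 3446.5 CPM in WT, 3416 to 3472 CPM in KO). The loop and distal sums were lower in KO there (1685 to 1980 against 1300 to 1561 CPM), as were the podocyte sums (101 to 114 against 53.6 to 72.5 CPM). How far Pck1 differed beyond such markers was not tested.

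Pck1 disomes were 636, 520 and 938 CPM in WT and 1038, 1312 and 1298 CPM in KO, again without overlap. The log2 difference was 0.85 (SE 0.21, adjusted p = 0.0974), and 7 of 14 settings passed, the reported one being among those that did not, with differences of 0.66 to 1.19. Without WT disome-seq replicate 3, the highest WT library, the adjusted p was 0.000116, and without KO disome-seq replicate 1, the lowest KO library, it was 0.0416. Pck1 RNA was 314, 221 and 671 CPM in WT kidney and 494, 643 and 542 CPM in KO kidney. Here WT replicate 3 was above all KO libraries, so the genotypes overlapped, and the log2 difference of 0.66 had an SE of 0.36 (adjusted p = 0.339). Without KO RNA-seq replicates 2 and 3 it was 0.37 (SE 0.49, adjusted p = 1.00). The RNA difference passed under limma voom with quality weights alone (1.00, adjusted p = 0.00287), which called 41.6% of all transcripts there.

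The kidney translation efficiency of Pck1 differed by -0.03 (SE 0.42, adjusted p = 1.00), and by 0.24 (SE 0.52, adjusted p = 0.951) without KO RNA-seq replicates 2 and 3. Both standard errors are wide beside the footprint difference of 0.66. In brain footprints the Pck1 difference was -0.16 (SE 0.37, adjusted p = 0.890), and the difference between the organs in the KO effect was 0.81 (SE 0.44, adjusted p = 0.713), which did not pass.

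G6pc was 139, 133 and 155 CPM in WT and 79.4, 136 and 120 CPM in KO kidney RNA, and 190, 222 and 160 CPM in WT and 130, 238 and 229 CPM in KO kidney footprints. KO replicate 1 was the lowest library in both assays, and also in disomes at 73.1 CPM against 176 and 179 CPM in the other KO libraries. The differences were -0.17 (SE 0.23, adjusted p = 0.687) in RNA and 0.13 (SE 0.19, adjusted p = 0.713) in footprints. Without KO RNA-seq replicates 2 and 3, leaving replicate 1 alone, the RNA difference was -0.79 (SE 0.22, adjusted p = 1.00).

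Fbp1 disomes were 595, 583 and 631 CPM in WT and 802, 706 and 687 CPM in KO. The KO libraries were all higher, with a log2 difference of 0.33 that did not pass (SE 0.16, adjusted p = 0.441). Its kidney footprints were 346, 406 and 399 CPM in WT and 517, 374 and 368 CPM in KO and overlapped (0.21, adjusted p = 0.494).

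Among the glycolytic genes, Hk1 had opposite signs in the 2 kidney assays. Its RNA was 35.8, 39.0 and 37.5 CPM in WT kidney and 30.4, 25.3 and 26.7 CPM in KO kidney, all KO libraries lower, with a log2 difference of -0.29 (SE 0.13, adjusted p = 0.297), or -0.25 (SE 0.22, adjusted p = 1.00) without KO RNA-seq replicates 2 and 3. Its kidney footprints were 38.7, 40.1 and 30.0 CPM in WT and 33.2, 53.2 and 45.8 CPM in KO, which overlapped, with a difference of 0.36 (SE 0.15, adjusted p = 0.147). The translation efficiency difference of 0.63 did not pass (SE 0.22, adjusted p = 0.174), nor did 0.57 (SE 0.29, adjusted p = 0.575) without those libraries.

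In brain, Hk1 footprints were 110, 96.5 and 92.3 CPM in WT and 115, 145 and 136 CPM in KO, without overlap (0.42, SE 0.12, adjusted p = 0.238). Pfkm showed the same arrangement in brain footprints, with 122, 109 and 118 CPM in WT and 132, 157 and 157 CPM in KO (0.37, SE 0.11, adjusted p = 0.243). In kidney its footprints were 22.6, 22.7 and 22.1 CPM in WT and 22.7, 28.5 and 27.4 CPM in KO (0.30, adjusted p = 0.0876).

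Ldha RNA was 248, 273 and 242 CPM in WT kidney and 267, 329 and 344 CPM in KO kidney. KO replicate 1 lay within the WT range and the 2 libraries that stood apart by mitochondrial rRNA lay above it. The difference was 0.47 (SE 0.18, adjusted p = 0.292). Without replicates 2 and 3 it was 0.12 (SE 0.22, adjusted p = 1.00), and without replicate 1 it was 0.63 (adjusted p = 0.0246), a setting in which 17.0% of all transcripts were called. Its kidney footprints differed by 0.17 (SE 0.13, adjusted p = 0.446).

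The kidney footprint difference of Pkm was 0.16 (SE 0.15, adjusted p = 0.525), and those of Aldoa and Ldhb were closer to 0, with adjusted p of 0.997 each. In brain RNA, all 6 members tested had positive differences, from 0.07 for Pfkm to 0.37 for Ldha, and none passed (adjusted p 0.898 to 0.909). Of the list of 53 genes, 42 of the 48 tested there were positive too, while the median over all transcripts was -0.016. In brain RNA-seq, rows covering only the 5′ end of a member also held on average a smaller share of its counts in KO. This held for each of the 6, with overlapping genotypes (Ldhb 34.0 to 49.1% in KO against 41.7 to 49.9% in WT). Its part in the positive differences was not tested.

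Counted without a model, KO and WT CPM did not overlap for 1 of 9 genes in kidney RNA (Hk1), 1 in kidney footprints (Pck1), 2 in disomes (Pck1 and Fbp1), 2 of 6 in brain RNA (Aldoa and Pkm) and 2 of 9 in brain footprints (Hk1 and Pfkm). Over all transcripts tested, the genotypes did not overlap for 20.7%, 29.4%, 17.3%, 9.82% and 18.4%, in the same order.

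Translation efficiency passed the test between genotypes for none of the 9 genes in kidney, beside 0.0% of all transcripts in edgeR. In brain it passed for none of the 6 glycolytic genes, again beside 0.0%. Pck1, G6pc and Fbp1 had too few brain RNA counts for this test to decide. At unadjusted p under 0.05 stood Hk1 and Pfkm in kidney and Pfkm in brain. DESeq2 called 0 of the members in each tissue, beside 4.61% of all transcripts in kidney and 0.0182% in brain. Limma voom called 2 in kidney, beside 29.9% of all transcripts, and 0 in brain. The paper, with the tool RiboDiff, reports a substantial number of transcripts with significant changes in each tissue. A difference between kidney and brain in the KO effect passed for none of the 6 glycolytic genes in RNA (0.00108% of all transcripts called). In footprints it passed for none of the 9 (0.0767%). The RNA terms of Pck1, G6pc and Fbp1 could not decide, since these genes passed the filter only through kidney. At unadjusted p this difference stood out for Hk1 RNA (-0.64, SE 0.18, adjusted p = 0.585) and for no member in footprints. DESeq2 called 0 in both, and limma voom called Hk1 alone in RNA, beside 15.7% of all transcripts.

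The shares of Pfkm, Pkm and Ldhb were also compared between genotypes within each tissue and assay, in a family of 25 tests. None reached an adjusted p under 0.5, and with 3 against 3 libraries the exact permutation test cannot go below 0.1. The Pkm M1 and M2 rows were taken over both genotypes alike.

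Disome CPM relative to Ribo-seq CPM in WT kidney was highest for Fbp1 at 1.57 and Ldha at 1.49, followed by Pck1 at 1.38 and Ldhb at 1.25. Hk1 (1.04), Pkm (0.976) and Aldoa (0.940) were near 1, and Pfkm (0.743) and G6pc (0.679) were lowest. These are ratios of group means and were given no test, because each assay has its own library composition.

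From the wider list of 53 genes, 4 of 46 tested rose in KO kidney footprints and 0 fell, beside the 7.76% given above. They were Pfkfb3, which makes the activator of phosphofructokinase (5.51 to 7.97 CPM on average, log2 difference 0.62, adjusted p = 0.0263), and the fructose carrier Slc2a5 (31.6 to 45.3 CPM, 0.59, adjusted p = 0.0187). The coactivator Ppargc1a (19.7 to 25.4 CPM, 0.44, adjusted p = 0.0299) and the hypoxia factor Hif1a (42.6 to 53.3 CPM, 0.40, adjusted p = 0.0488) were the others. All 4 were also called by DESeq2 and limma voom, but 0 of the list were called without WT replicate 1, KO replicate 2 or KO replicate 3. With library totals alone 2 of the list were called, Pcx and Slc2a5, so of the 4 only Slc2a5 was kept. In the other genotype comparisons within a tissue and assay 0 of the list passed by edgeR, with 6 of 48 at unadjusted p under 0.05 in kidney RNA, 7 of 35 in disomes, 3 of 48 in brain RNA and 3 of 45 in brain footprints. There DESeq2 called 0, 1, 0 and 2 of the list and limma voom 19, 1, 0 and 1, in the same order, of which the 19 stand beside the 41.6% of all transcripts that limma voom called in kidney RNA.

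Genes whose RNA profile over the 12 RNA-seq libraries was most like that of a member are given as a description, since all 12 points fall into 2 tissues. Among 9686 genes, Pck1 was nearest to Acy1, Azgp1 and Nr1h4 (Pearson r of 0.999 each), G6pc to Ehf, Hsd11b2 and Slc7a13, and Fbp1 to Aadat, Cyp2j5 and Mfsd4b1. Pfkm was nearest to Tbc1d24, Rusc2 and Pde2a, Pkm to Cabp1, Nav3 and Adora1, and Hk1 to Extl3, Plekhm2 and Zfyve9. Ldha was nearest to Lgals1, Spr and Ndufa10, and Ldhb to Ndufa9, Atp5c1 and Tmem176b. These 8 members each had 2599 to 3171 genes at r above 0.9, so the neighbours are hardly specific, whereas Aldoa had none and was nearest to Ramp3 at 0.85.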

How the data were processed

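The authors deposited 1 table of read counts per transcript for the 30 mouse libraries. Ribosome-protected fragments came from lysates treated with RNase I, and the reads were trimmed with cutadapt, aligned with STAR to GRCm38 (mm10) and counted with featureCounts. Multimapping was allowed and a read could count toward several transcripts, so rows of the same gene share reads and near-identical copies cannot be separated. The counts as deposited were used unscaled, and 28 columns of the human-transcript table were not used. Groups came from the sample titles.

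Rows were matched to GENCODE M21 (141374 of 142604). Every member was described by the transcript with the longest protein, ties going to the longer exonic length and then to the lower identifier. All coding rows of Pkm and Hk1, the sister isozymes and up to 3 other genes of the list of 53 with the largest fold were also allowed by this rule. The members and lists were chosen with earlier results of these data known. Cell type markers were summed as CPM.

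Tests used edgeR 4.0.16 (R 4.3.3): filterByExpr, TMM scaling and the quasi-likelihood F-test, with p-values adjusted by the Benjamini-Hochberg method across every transcript in a test and a threshold of 0.05. Standard errors were taken as the log2 difference divided by the square root of F. Translation efficiency was the assay by genotype or assay by tissue term. Isozyme shares were compared by two-sided exact permutation tests (scipy 1.17.1). Some sister genes, and the shares that need them, are not reported here. DESeq2 1.42.0, limma 3.58.1 (voom with quality weights), library totals alone, other filters on low counts, gene sums, a replicate block and leaving out each library were the alternatives, and the fits were checked on simulated counts.

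The study calls its replicates biological, but the labels do not tie libraries to animals, so p-values measure the spread between these libraries. Library totals, given with the results, ranged from 1187636 counts in disome-seq to 123745890 in brain RNA-seq, and brain counts of Pck1, G6pc and Fbp1 rest on few counts. Floors of 3 counts cover counting error only. Deviations from group means of Ribo-seq and RNA-seq libraries with the same number correlated at 0.19 to 0.26 in WT kidney, 0.28 to 0.56 in WT brain and 0.16 to 0.18 in KO kidney, so these were treated as pairs in the blocked translation efficiency fits. Upstream windows were read from the GRCm38 genome at GENCODE M21 starts.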

Additional observations from a re-analysis of the deposited data

How the results depend on the processing

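The tissue differences called in RNA and footprints kept their direction under every alternative run, and Hk1 in RNA and Aldoa in footprints were the members whose call was lost on leaving out a library, as given with their values. The genotype calls, 0 of the members in each comparison, changed as follows. In kidney RNA, limma voom called 2 and leaving out each library gave 0 to 1. In kidney footprints, DESeq2 called 1, library totals alone 1, no filter beyond 1 count 2 and limma voom 2, with 0 to 1 on leaving out each library. In disomes, DESeq2, library totals alone, no filter and limma voom each called 1, with 0 to 1 on leaving out each library. In brain footprints, DESeq2 called 2 and no filter 1. Limma voom called 2 in kidney translation efficiency and 1 in the RNA difference between organs of the KO effect. In WT translation efficiency between organs, DESeq2 and limma voom each called 4 of the 6 glycolytic genes instead of 2. In WT RNA between organs, a minimum of 10 counts in every library left 6 genes, of which 5 were called, because Pck1, G6pc and Fbp1 were no longer tested. With WT libraries alone 0 of the 10 isozyme shares could pass. No result reversed; members with an unadjusted p of 0.05 or more were taken to have no direction. The cause of the other changes was not tested.

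WT and KO libraries of 1 number did not deviate together in every pair (-0.31 to 0.50 in kidney RNA, -0.14 to 0.08 in kidney footprints, 0.03 to 0.15 in disomes), so their numbers are only shared. With the replicate block, Pck1 in disomes was called (1 of 9, adjusted p = 0.00150), and translation efficiency between organs gave 4 of the 6 glycolytic genes instead of 2. The block changed no other call of a member. Disome libraries and the brain values of the gluconeogenic genes rest on few counts.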
